A study of Mus musculus with 2 samples.

Results

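The genes described here are 38 subunits and opposing enzymes of the Polycomb complexes, measured by total RNA-seq in mouse hematopoietic stem cells (HSC). They were chosen by symbol, and all 38 were found among the 43346 genes of the deposited gene tables, of which 21474 are protein-coding. The group HSC held 2 libraries, labelled biological replicates 1 and 2, both from C57BL/6J mice, male and 5 to 6 weeks old, with 100 ng of RNA a library and ribosomal RNA removed. The labels name 1 donor entry for both libraries and no treatment or mutation, and neither the surface gate nor any pooling of animals is stated in the labels. There was 1 group, so the comparisons are between genes within a library and between the replicates, which may share animals.

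Polycomb proteins keep genes silent by marking histones. Polycomb repressive complex 2 (PRC2) methylates lysine 27 of histone H3, and Polycomb repressive complex 1 (PRC1) attaches ubiquitin to histone H2A and compacts chromatin. Another complex, PR-DUB, built from BAP1 and an ASXL protein, removes that ubiquitin, and the demethylases KDM6A and KDM6B remove the H3 lysine 27 mark. Most positions in these complexes can be filled by one of several related proteins, and the choice sets the form of the complex. In blood, Bmi1 is needed for the self-renewal of stem cells, and EZH2, ASXL1, BCOR and KDM6A are recurrently mutated in human myeloid malignancies.

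Values are in TPM, a length-corrected share of all transcripts, which divides the reads of a transcript by its effective length, so that levels of different genes can be set side by side. Each gene value also has a lower and an upper bound in the deposited tables. The total was 27901074 counts for replicate 1 and 48490188 for replicate 2. Where no count was seen, up to 3 counts remain possible, a floor of 0.108 CPM for replicate 1 and 0.0619 for replicate 2, where CPM divides a count by the total of its library. Such floors and the bounds cover counting and assignment error only. Protein-coding genes held 16.3% of all TPM in replicate 1 and 20.3% in replicate 2. All 10 of the HSC and progenitor genes checked reached 1 TPM in both libraries, and their summed TPM was 379.81 in replicate 1 and 411.75 in replicate 2. Genes of other blood cells were present too. The 8 neutrophil genes summed to 3008 TPM in replicate 1 and 1115 in replicate 2, the 8 erythroid genes to 102 and 218, and the 8 monocyte and macrophage genes to 368 and 171. Of the B cell genes 1 of 8 reached 1 TPM in both libraries, with 3 at 0 counts in both, and of the T and NK cell genes 3 of 8, with 2 at 0 counts. In bulk libraries fewer cells of a type and less RNA per cell cannot be told apart, and the part of such cells in the levels below was not tested.

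Several Polycomb genes have more than 1 promoter. For 3 of them, all in PRC1, a start downstream of the first held more TPM than any other start with transcripts in the deposited tables. The 250 bases before the relevant starts are printed here because they show what distinguishes the starts in sequence. They come from RefSeq (GRCm38.p6), run 5′ to 3′ on the strand of the gene, and have each CpG, a C followed by a G, in capitals. Starts are numbered from the most upstream. For Kdm2b, on the minus strand of chromosome 5, the first start is that of the long transcript (chr5:122989100-122989349), and the downstream start, start 2 (chr5:122900351-122900600) lies 88749 nucleotides further along the gene. For Phc2, on the plus strand of chromosome 4, the first start (chr4:128654452-128654701) and the third (chr4:128727321-128727570) are 72869 nucleotides apart. For Pcgf5, on the plus strand of chromosome 19, the second start (chr19:36378817-36379066) and the third (chr19:36409498-36409747) are shown, since no transcript of the deposited tables began at the first.
Kdm2b start 1: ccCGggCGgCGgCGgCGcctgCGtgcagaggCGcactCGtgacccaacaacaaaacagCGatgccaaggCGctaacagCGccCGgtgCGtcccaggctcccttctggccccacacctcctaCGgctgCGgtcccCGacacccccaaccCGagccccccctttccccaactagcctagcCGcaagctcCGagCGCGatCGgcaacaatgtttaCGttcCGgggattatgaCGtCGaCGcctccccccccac
Kdm2b start 2: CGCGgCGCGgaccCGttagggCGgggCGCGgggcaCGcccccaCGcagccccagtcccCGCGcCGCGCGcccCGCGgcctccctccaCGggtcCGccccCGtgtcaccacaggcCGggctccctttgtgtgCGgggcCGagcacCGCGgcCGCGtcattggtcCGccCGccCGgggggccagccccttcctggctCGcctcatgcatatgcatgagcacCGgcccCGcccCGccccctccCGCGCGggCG
Phc2 start 1: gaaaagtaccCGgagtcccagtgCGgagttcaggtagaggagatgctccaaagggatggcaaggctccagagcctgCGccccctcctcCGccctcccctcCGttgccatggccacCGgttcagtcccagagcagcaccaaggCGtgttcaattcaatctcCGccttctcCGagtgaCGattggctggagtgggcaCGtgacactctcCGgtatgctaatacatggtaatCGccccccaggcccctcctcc
Phc2 start 3: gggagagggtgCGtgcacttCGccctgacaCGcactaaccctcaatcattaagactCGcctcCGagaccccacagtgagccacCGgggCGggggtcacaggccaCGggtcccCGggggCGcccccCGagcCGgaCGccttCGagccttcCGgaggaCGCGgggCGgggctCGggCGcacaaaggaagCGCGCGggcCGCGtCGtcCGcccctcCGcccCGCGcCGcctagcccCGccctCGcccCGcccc
Pcgf5 start 2: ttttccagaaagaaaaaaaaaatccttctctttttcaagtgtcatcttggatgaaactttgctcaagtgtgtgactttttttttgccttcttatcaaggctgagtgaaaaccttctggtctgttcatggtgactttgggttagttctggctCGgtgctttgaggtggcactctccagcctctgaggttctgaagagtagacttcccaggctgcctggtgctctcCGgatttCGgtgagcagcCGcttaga
Pcgf5 start 3: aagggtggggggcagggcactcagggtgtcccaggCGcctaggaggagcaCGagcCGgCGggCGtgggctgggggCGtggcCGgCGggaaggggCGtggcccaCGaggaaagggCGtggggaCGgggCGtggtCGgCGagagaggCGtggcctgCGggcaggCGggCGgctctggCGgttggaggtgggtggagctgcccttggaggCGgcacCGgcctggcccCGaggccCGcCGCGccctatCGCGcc
The Kdm2b stretches hold 27 CpG at the first start and 38 at the downstream one, the Phc2 stretches 13 at the first and 34 at the third, and the Pcgf5 stretches 4 at the second and 28 at the third. Of the starts printed, that with most of the TPM was thus the richer in CpG for Kdm2b and Phc2 and the poorer for Pcgf5. The first Pcgf5 start, which is not printed, held 34 CpG in a 300-base window, against 5 for the second and 35 for the third. With no transcript in the deposited tables, the first start could be given no TPM.

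Nearly all Polycomb genes were detected, at moderate levels. At least 1 TPM in both libraries was reached by 33 of the 38 genes, against 44.0% of protein-coding genes, and every one of the 38 had at least 10 counts in each library. The median over the 38 genes was 5.24 TPM in replicate 1 and 6.04 in replicate 2, close to the medians of 5.84 and 7.16 TPM over the protein-coding genes that passed the same threshold. A level of 10 TPM in both libraries was reached by 9 of the 38, against 12.8% of protein-coding genes. By complex, the median over 11 PRC2 genes was 15.3 TPM in replicate 1 and 24.0 in replicate 2, and that over 22 PRC1 genes was 3.66 and 4.66 TPM. The 3 PR-DUB genes had medians of 7.84 and 8.76 TPM. PRC2 genes were thus mostly above PRC1 genes, and the 5 genes that missed the threshold were Phf19 of PRC2, Pcgf2, Cbx8 and Scml2 of PRC1, and Kdm6b.

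**Figure D1:**
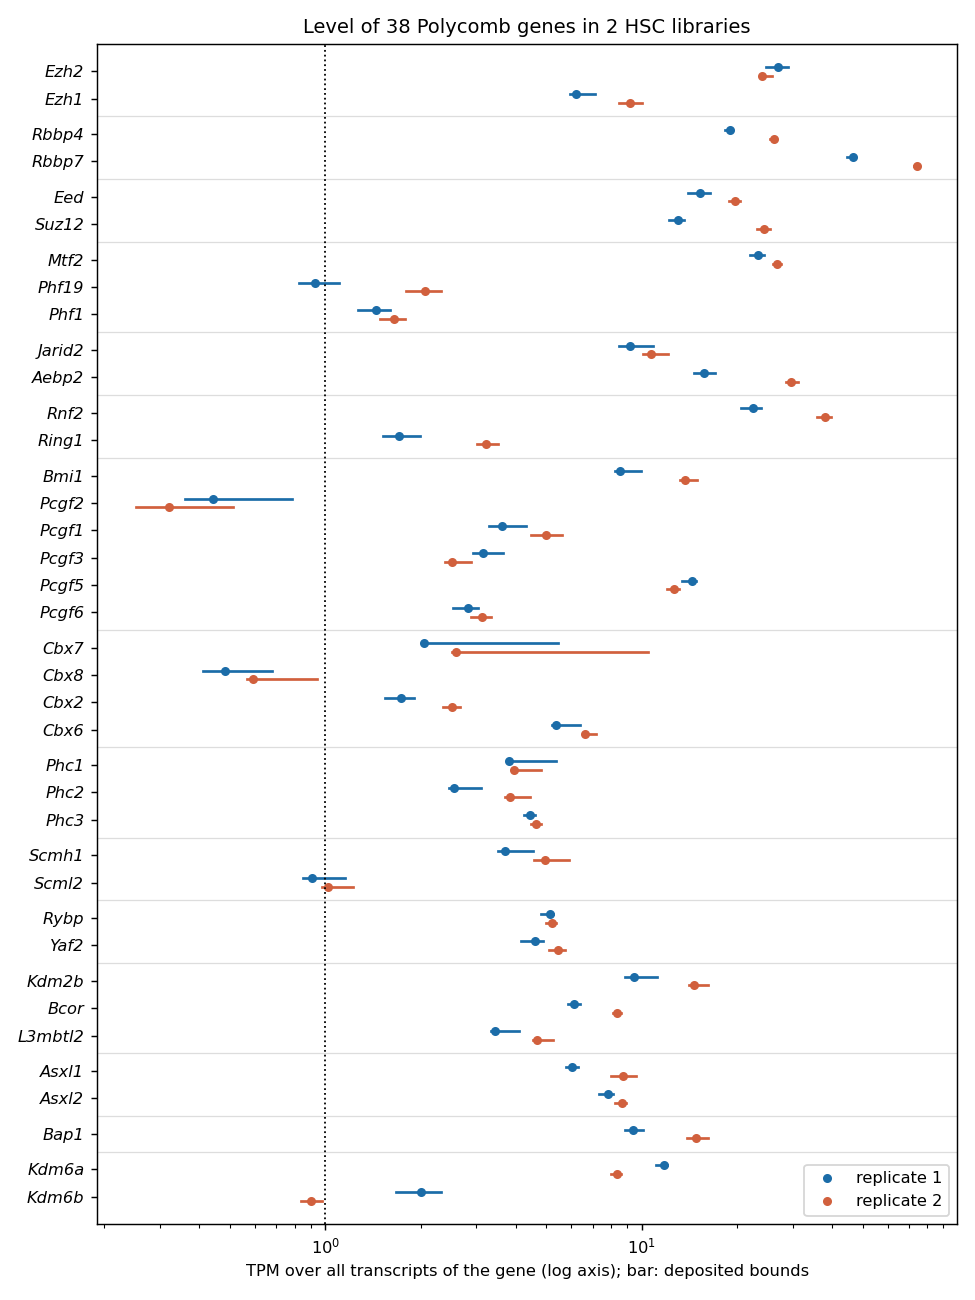
TPM of each of the 38 genes (log axis) in replicate 1 and replicate 2, grouped by the position they fill, with the deposited bounds as bars and a dotted line at 1 TPM. Rbbp7 is the highest gene at 46.6 TPM in replicate 1 and 74.3 in replicate 2, Pcgf2 the lowest at 0.44 and 0.32, and the bounds of Cbx7 are wide upward.

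Within each position the related genes were set against each other. A pair counted as ordered when the same gene was higher in both libraries and the deposited bounds of the genes did not overlap in either. Of the 35 pairs formed, 25 were ordered, against 83.8% of all pairs of 12093 protein-coding genes with at least 10 counts. Both counts include Jarid2 and Aebp2, which occur together in a form of PRC2 and are not alternatives for the same position. With 2 replicates an exact sign-flip permutation test cannot go below p = 0.5, so ratios are given as log2 mean ± SD (n = 2, pseudocount 0.1 TPM) without a p-value.

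Of the genes for the catalytic position of PRC2, Ezh2 had the more RNA. Ezh2 encodes the more active H3 lysine 27 methyltransferase, typical of dividing cells, and lies on chromosome 6 (chr6:47530139-47595341, GRCm38). It had 27.02 TPM in replicate 1 and 24.02 in replicate 2. Its paralog Ezh1, the weaker enzyme that persists in resting cells and is needed for adult HSC, had 6.19 TPM in replicate 1 and 9.16 in replicate 2. Ezh2 was above Ezh1 in both libraries with bounds apart, and the log2 ratio was 1.74 ± 0.51, or 3.35-fold. Ezh2 held 81.4% of the summed Ezh2 and Ezh1 TPM in replicate 1 and 72.4% in replicate 2, so Ezh1 was the smaller but still a measurable share.

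The obligatory partners of EZH were close to each other in TPM. Eed, which binds the methylated tail and stimulates the enzyme, had 15.3 TPM in replicate 1 and 19.8 in replicate 2. Suz12, the scaffold of PRC2, had 13.0 and 24.4 TPM. Eed was higher in replicate 1 and Suz12 in replicate 2, so these genes had no fixed order. The histone-binding WD40 proteins also belong to several other chromatin complexes, and Rbbp7 was the highest of the 38 genes. Rbbp4 had 19.1 TPM in replicate 1 and 26.2 in replicate 2, against 46.6 and 74.3 TPM for Rbbp7. The log2 ratio of Rbbp4 over Rbbp7 was -1.39 ± 0.15, which puts Rbbp7 2.63-fold higher, with 71.0% of their summed TPM in replicate 1 and 74.0% in replicate 2. By CPM, before division by length, the direction was the same and the distance small, with a log2 ratio of -0.23.

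Accessory proteins divide PRC2 into a form with a Polycomb-like protein (PRC2.1) and a form with JARID2 and AEBP2 (PRC2.2). Among the Polycomb-like genes, whose products recognise CpG-rich DNA, Mtf2 stood alone. Mtf2 had 23.3 TPM in replicate 1 and 26.8 in replicate 2, which was 90.7% and 87.8% of the summed TPM of the 3 genes. Phf19 had 0.93 and 2.06 TPM. Phf1 had 1.45 and 1.65 TPM. Mtf2 was 16.8-fold above Phf19 (log2 4.07 ± 0.61) and 15.2-fold above Phf1 (log2 3.93 ± 0.02), while Phf19 and Phf1 changed order between the libraries over all transcripts. In PRC2.2, Jarid2 had 9.22 TPM in replicate 1 and 10.7 in replicate 2, against 15.7 and 29.7 TPM for Aebp2. Jarid2 was the lower in both libraries (log2 ratio of Jarid2 over Aebp2 -1.11 ± 0.49). The bounds no longer separated the pair over complete coding transcripts, described below, or by CPM.

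In PRC1 the E3 ubiquitin ligase is either RING1B, encoded by Rnf2, or RING1A, encoded by Ring1. Rnf2 (chr1:151458004-151500955) had 22.4 TPM in replicate 1 and 38.1 in replicate 2, against 1.71 and 3.22 TPM for Ring1 (chr17:34020792-34024680). Rnf2 was 12.0-fold higher, with a log2 ratio of 3.58 ± 0.08, and held 92.9% of their summed TPM in replicate 1 and 92.2% in replicate 2. The order was the same in every alternative run. Much of the Rnf2 TPM was in 1 short noncoding transcript, described below, and the ratio was smaller without it.

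The ligase pairs with 1 of 6 PCGF proteins, and that partner defines the PRC1 variant. BMI1 (PCGF4) and PCGF2 (MEL18) sit in canonical PRC1 with CBX and PHC proteins, and PCGF1, PCGF3, PCGF5 and PCGF6 in variant complexes with RYBP or YAF2. Pcgf5 had 14.4 TPM in replicate 1 and 12.7 in replicate 2. Bmi1 had 8.54 and 13.7 TPM. Pcgf5 was the higher in replicate 1 and Bmi1 in replicate 2, by log2 ratios of Pcgf5 over Bmi1 of 0.75 and -0.11, so the top of this family was shared between a variant and a canonical subunit. Together they made up 43.7% (Pcgf5) and 25.9% (Bmi1) of the PCGF TPM in replicate 1 and 33.9% and 36.8% in replicate 2. Pcgf1 had 3.62 TPM in replicate 1 and 4.97 in replicate 2. Pcgf3 had 3.15 and 2.51 TPM. Pcgf6 had 2.82 and 3.13 TPM. These 3 genes formed a middle level, with Pcgf5 above them by 3.13-fold for Pcgf1 (log2 1.65 ± 0.45), 4.67-fold for Pcgf3 (log2 2.22 ± 0.09) and 4.43-fold for Pcgf6 (log2 2.15 ± 0.23). Pcgf1 and Pcgf3 were not ordered, nor were Pcgf3 and Pcgf6. Pcgf2, the closest relative of Bmi1, was the lowest of the 38 genes, with 45 counts and 0.44 TPM in replicate 1 and 46 counts and 0.32 TPM in replicate 2. Pcgf5 was 28.6-fold above it (log2 4.84 ± 0.13). Of the 15 PCGF pairs 12 were ordered. Before division by length, by CPM, Bmi1 was ordered above Pcgf5 (log2 ratio of Pcgf5 over Bmi1 -0.80), Pcgf5 and Pcgf3 were not ordered (log2 0.02), and Pcgf1 was ordered below Pcgf6 (log2 -1.04).

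The CBX proteins carry a chromodomain that reads methylated H3 lysine 27 and tether canonical PRC1 to PRC2 targets. In mouse HSC, Cbx7 is known for sustaining self-renewal. Of the 4 CBX genes among the members, Cbx6 had the highest value, 5.36 TPM in replicate 1 and 6.63 in replicate 2, which was 55.7% and 53.9% of the 4 genes' TPM. Cbx7 had 2.05 TPM with bounds of 2.03 to 5.45 in replicate 1, and 2.58 TPM with bounds of 2.52 to 10.4 in replicate 2. Its TPM lay at the foot of its bounds, which overlapped those of Cbx6 in both libraries, so Cbx6 over Cbx7 was not ordered (log2 1.34 ± 0.01). With posterior mean TPM, which put Cbx7 at 3.29 and 5.30 TPM, the log2 ratio was 0.58, so the replicate SD understates the uncertainty of this pair and of the shares. Cbx2 had 1.73 and 2.51 TPM. Cbx8 had 0.48 and 0.59 TPM. Cbx6 was above both, by 2.77-fold for Cbx2 (log2 1.47 ± 0.15) and 9.58-fold for Cbx8 (log2 3.26 ± 0.04).

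The PHC genes were closer to each other in TPM. The PHC proteins polymerise through a SAM domain and join PRC1 particles. Phc3 had 4.45 TPM in replicate 1 and 4.64 in replicate 2. Phc1 had 3.82 and 3.96 TPM. Phc2, whose loss in mouse depletes bone marrow HSC, had 2.55 and 3.84 TPM. Phc3 was above Phc2 (log2 0.52 ± 0.36) and not separable from Phc1 by the deposited bounds (log2 0.22 ± 0.01). For the SCM proteins, which also have a SAM domain, Scmh1 had 3.70 TPM in replicate 1 and 4.95 in replicate 2, against 0.91 and 1.02 TPM for Scml2. Scmh1 was thus 4.12-fold higher over all transcripts (log2 2.04 ± 0.18), a distance that vanished over complete coding transcripts.

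Among the variant PRC1 genes, the RYBP and YAF2 adaptors, which stimulate the ligase in place of a CBX protein, were level by TPM. Rybp had 5.12 TPM in replicate 1 and 5.20 in replicate 2, against 4.60 and 5.44 TPM for Yaf2, and the log2 ratio was 0.04 ± 0.15. By CPM Rybp was ordered above Yaf2 (log2 1.57). Kdm2b, which brings PRC1 to unmethylated CpG islands through its CXXC domain, had 9.48 and 14.7 TPM. Bcor, its partner in the PCGF1 complex, had 6.12 and 8.36 TPM. L3mbtl2, a subunit of the PCGF6 complex, had 3.44 and 4.68 TPM. Kdm2b was highest of the 3 in both libraries and L3mbtl2 lowest.

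In PR-DUB, Bap1, the deubiquitinase itself, had 9.42 TPM in replicate 1 and 14.9 in replicate 2. Of the ASXL cofactors that activate it, Asxl1 had 6.01 and 8.76 TPM, against 7.84 and 8.65 TPM for Asxl2. Asxl1 was the lower in replicate 1 and level with Asxl2 in replicate 2, and the pair was not ordered (log2 ratio of Asxl1 over Asxl2 -0.18 ± 0.28). The demethylases were far apart. Kdm6a (chrX:18162575-18279936) had 11.8 TPM in replicate 1 and 8.38 in replicate 2, against 2.01 and 0.90 TPM for Kdm6b, a 6.90-fold distance (log2 2.79 ± 0.42). Uty, the Y-linked relative of Kdm6a, which has little demethylase activity, is not among the members and was looked at after its values were seen. Uty had 8.86 TPM in replicate 1 and 9.41 in replicate 2, so that Kdm6a was above it in replicate 1 and below it in replicate 2. Over complete coding transcripts Kdm6a was below Uty in both libraries, at 5.12 against 5.80 TPM in replicate 1 and 4.95 against 6.68 in replicate 2.

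**Figure D2:**
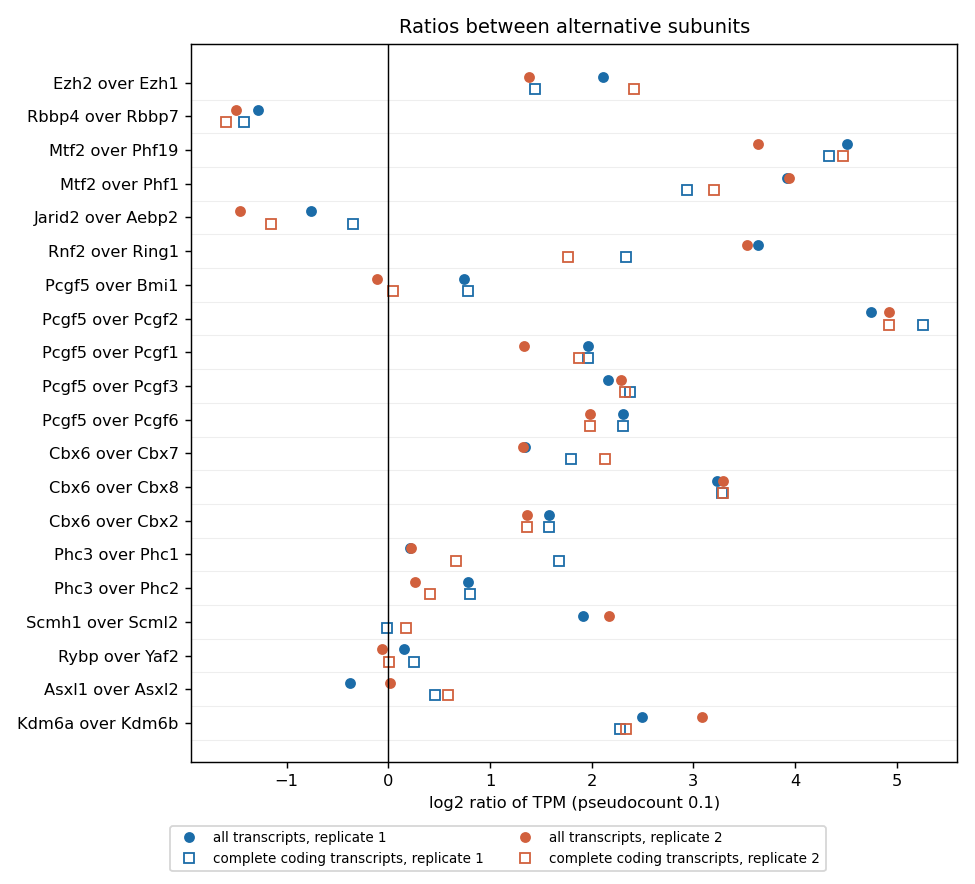
Log2 ratio of TPM (pseudocount 0.1) for 20 pairs of subunits in each library, over all transcripts of a gene (filled circles) and over transcripts with a complete coding sequence (open squares). The pairs are related genes of the same position, except Jarid2 over Aebp2, which occur together in PRC2.2. Mtf2, Rnf2 and Kdm6a stay well right of 0 in both libraries on both measures, whereas Scmh1 over Scml2 averages 2.04 over all transcripts and 0.08 over complete coding ones.

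A gene value in TPM sums all its annotated transcripts, also short fragments that lack a complete reading frame. As a second measure, chosen after the data were seen, TPM was summed over transcripts with a complete coding sequence in GENCODE M21. These held 71.3% of the TPM of the 38 genes in replicate 1 and 71.5% in replicate 2, against 81.9% and 82.1% over protein-coding genes. The median share by reads was higher, 94.5% of a gene's counts in replicate 1 and 94.4% in replicate 2. A short transcript reaches a given TPM with few reads. On this measure 32 of the 38 genes reached 1 TPM in both libraries, against 40.9% of protein-coding genes. The share of TPM was under 50% in both libraries for 4 genes, Scmh1, Aebp2, Rnf2 and Jarid2. Of the pairs, 26 of the 35 were ordered, 22 of them in the same direction as over all transcripts, and none of the ordered pairs turned round.

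**Figure D3:**
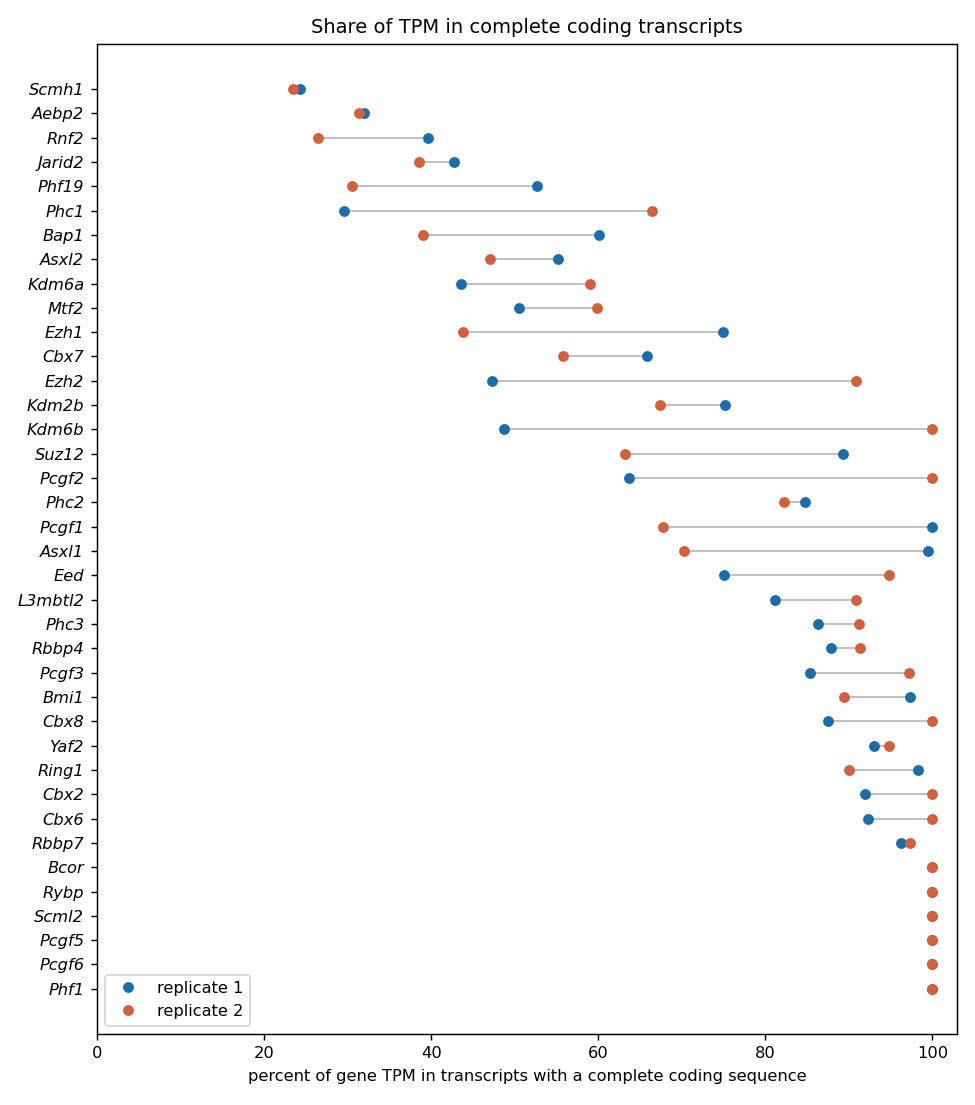
Percent of each gene's TPM that lies in transcripts with a complete coding sequence, in replicate 1 and replicate 2, sorted by the mean. Scmh1, Aebp2, Rnf2 and Jarid2 lie under 50% in both libraries, and Ezh2 ranges from 47.3% in replicate 1 to 90.8% in replicate 2.

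Rnf2 is an example that lies outside the naming rule for transcripts and that was chosen after its values were seen. The processed transcript Rnf2-202, 570 nucleotides long and without an annotated reading frame, had 13.0 TPM from 424 counts in replicate 1 and 26.7 TPM from 1132 counts in replicate 2. The coding transcript Rnf2-201, of 3160 nucleotides, had 8.89 TPM from 2279 counts and 10.1 TPM from 3810 counts. The coding form thus held most of the reads and the minority of the TPM. Over complete coding transcripts Rnf2 had 8.89 and 10.1 TPM, against 1.68 and 2.90 TPM for Ring1, a ratio of 4.14-fold (log2 2.05 ± 0.40) in place of 12.0-fold.

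Other pairs moved with the measure too. Over complete coding transcripts Jarid2 had 3.94 and 4.13 TPM, against 5.04 and 9.32 TPM for Aebp2, and the pair was no longer ordered (log2 -0.75 ± 0.57). Scmh1 had 0.90 and 1.16 TPM, against 0.91 and 1.02 TPM for Scml2, and was level with it (log2 0.08 ± 0.13). Asxl1 had 5.98 and 6.16 TPM, against 4.33 and 4.07 TPM for Asxl2, so that here Asxl1 was the higher, with bounds apart (log2 0.52 ± 0.09), whereas by CPM Asxl1 was the lower with intervals apart (log2 -0.22). Cbx6 over Cbx7 and Phc3 over Phc1 also became ordered on this measure, at log2 1.96 ± 0.23 and 1.17 ± 0.72. So did Phf19 over Phf1, with Phf1 2.51-fold higher (log2 -1.33 ± 0.09), and Mtf2 over Phf1 was 8.41-fold in place of 15.2-fold. Ezh2 over Ezh1 stayed ordered at log2 1.93 ± 0.69, but its libraries moved in opposite directions, to 1.44 in replicate 1 (2.11 over all transcripts) and 2.41 in replicate 2 (1.38 over all transcripts).

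For some genes the leading transcript itself differed between the libraries. The same transcript was highest in both libraries for 23 of the 35 members with several transcripts, against 74.0% of protein-coding genes of mean 1 TPM or more. The leading transcript was taken by its value alone, without the bounds, so some of the other 12 differences were not resolved. Ezh2 was among these 12. Its highest transcript was Ezh2-209 in replicate 1, a nonsense-mediated decay form of 666 nucleotides with 5.23 TPM there and 0 in replicate 2, and Ezh2-202 in replicate 2, a coding form with 4.83 TPM in replicate 1 and 10.6 in replicate 2. Its complete coding TPM was therefore 12.8 in replicate 1 and 21.8 in replicate 2, although the gene totals were close. Bap1 went the other way, with the decay form Bap1-204 at 0 TPM in replicate 1 and 5.86 in replicate 2, while its coding form Bap1-201 stayed at 5.66 and 5.82 TPM. In Kdm6a the retained-intron form Kdm6a-204 had 5.41 and 1.81 TPM, while the coding Kdm6a-201 had 5.12 and 4.95 TPM. In all 3 genes the short or noncoding forms changed more than the gene total.

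In Aebp2 the highest transcript was the incomplete Aebp2-208 in replicate 1 (6.37 TPM, 0 in replicate 2) and the processed Aebp2-207 in replicate 2 (2.36 TPM in replicate 1, 12.1 in replicate 2). In Bmi1 both leading forms were coding. Bmi1-202 had 4.17 and 5.47 TPM, against 4.14 and 6.79 TPM for Bmi1-201, and their bounds overlapped in replicate 1. In Ezh1 the near-identical coding forms Ezh1-202 and Ezh1-203 exchanged places by value. Ezh1-202 had 4.46 and 0.47 TPM, and Ezh1-203 had 0 and 2.74 TPM. In replicate 2 their bounds overlapped, 0.012 to 2.72 TPM for Ezh1-202 and 0.175 to 2.98 for Ezh1-203, so their order there was not resolved. In Pcgf1 the coding Pcgf1-201 led in replicate 1 with 2.63 TPM and the decay form Pcgf1-203 in replicate 2 with 1.59 TPM. The bounds of these Pcgf1 forms overlapped in replicate 2. Jarid2-208 (3.71 and 3.56 TPM) and Asxl2-202 (3.95 and 3.74 TPM) led in both libraries and were complete coding forms with stable levels. The labelled fragment size ranges differed between the libraries, 172 to 1452 nucleotides in replicate 1 and 232 to 1000 in replicate 2, and their part in these shifts was not tested.

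The starts whose sequences are printed above differed in use. The transcript Kdm2b-201 begins at the downstream start and corresponds to the shorter protein that keeps the CXXC domain and lacks the demethylase domain. It had 4.81 TPM from 1388 counts in replicate 1 and 7.23 TPM from 3086 counts in replicate 2. The transcripts of the first start had 2.38 TPM in replicate 1 and 2.66 in replicate 2. The downstream start thus held 50.8% of the Kdm2b TPM in replicate 1 and 49.3% in replicate 2, and 67.5% and 73.2% of its complete coding TPM, with bounds of 4.38 to 5.21 and 6.91 to 7.67 TPM that lay above those of the first start (1.55 to 3.20 and 1.76 to 3.82 TPM, summed over transcripts). In Phc2 the third start held 84.7% of the TPM in replicate 1 and 79.4% in replicate 2, with 2.16 and 3.04 TPM, against 0.29 and 0.33 TPM at the first start. In Pcgf5 the second start held 96.1% and 94.6%, with 13.8 and 12.0 TPM, against 0.56 and 0.68 TPM at the third. The first Pcgf5 start had no transcript in the deposited tables, so it could hold no share. A transcript was assigned to a start within 500 nucleotides of its annotated 5′ end, so these shares follow the annotation and not mapped read starts.

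**Figure D4:**
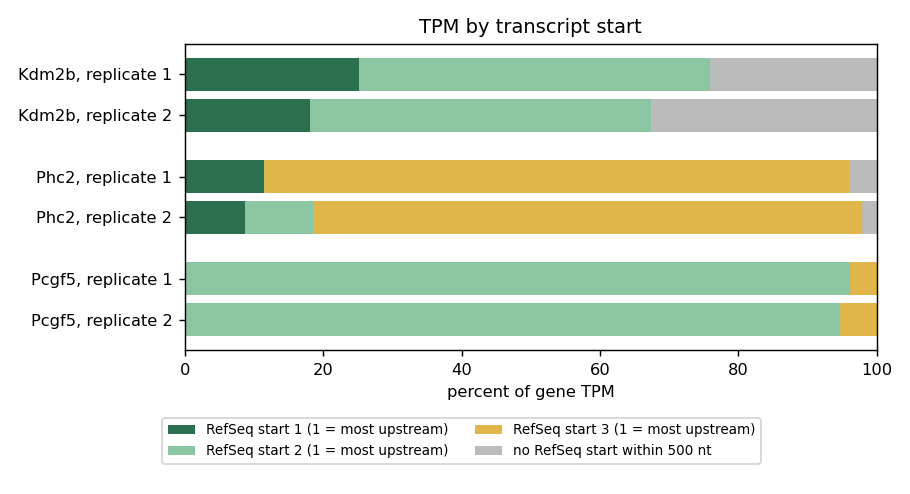
Percent of gene TPM in transcripts that begin within 500 nucleotides of each RefSeq start, numbered from the most upstream, for Kdm2b, Phc2 and Pcgf5 in replicate 1 and replicate 2. The downstream start of Kdm2b holds 50.8% and 49.3%, the third start of Phc2 84.7% and 79.4%, and the second start of Pcgf5 96.1% and 94.6%. The first start of Pcgf5 has no transcript in the deposited tables.

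Promoters of 33 of the 38 genes were in the RefSeq table, as 46 stretches of 300 bases from 250 before to 50 after a start. Their median was 23 CpG, against 7 over all 32851 promoters, with a range of 0 to 54. The single promoter of Bap1 held 50, and the lowest values, 0 to 5, were in genes with several starts, Scmh1, Mtf2, Phc2, Aebp2 and Pcgf5. They include the second start of Pcgf5, which held most of its TPM. The first start of Aebp2, with 4 CpG, held 20.3% of the gene's TPM in replicate 1 and 23.5% in replicate 2. Transcripts with no RefSeq start within 500 nucleotides held 79.7% and 76.5%. Of the complete coding TPM of Aebp2 alone, the first start held 63.5% in replicate 1 and 74.8% in replicate 2. The E2F motifs TTTCCCGC, TTTCGCGC, TTTGCCGC and TTTGGCGC, searched on both strands, were found in 3 of the members' 46 promoters (6.52%), against 2.26% of all. The median share of G and C bases was 64.3% in the members' promoters, against 52.7% over all, and its part in this difference was not tested. The matches were in Ezh2, Suz12 and Phf19, all of PRC2. A match is a run of letters in the window and not evidence of binding.

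The direction of the differences between the replicates depended on the scale. By TPM 32 of the 38 genes were higher in replicate 2, against 74.0% of 9900 protein-coding genes of mean 1 TPM or more, and 6 in replicate 1, against 25.8%, and the median log2 ratio of replicate 1 over replicate 2 was -0.34, against -0.29 over the same protein-coding genes. With TMM-scaled counts 18 genes were higher in replicate 1 and 20 in replicate 2, and the median was -0.02, against -0.04. With TPM rescaled over protein-coding genes, whose share of all TPM was the smaller in replicate 1, the median was -0.03, against 0.02. The excess of genes higher in replicate 2 was thus present by TPM over all features and not by TMM-scaled counts. A gene counted as apart when its mean was 1 TPM or more, its TPM differed by over 2-fold and its bounds did not overlap. Of the 35 members with that mean 2 were apart, against 9.27% of protein-coding genes. Kdm6b was the 1 member higher in replicate 1 (2.26% of protein-coding genes) and Phf19 the 1 higher in replicate 2 (7.01%). With the fold left out, bounds did not overlap for 27 of these 35 members, against 71.1% of protein-coding genes.

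Both calls rested on short transcripts. Kdm6b had 2.01 TPM in replicate 1 and 0.90 in replicate 2. Its coding transcript Kdm6b-201 had 0.98 and 0.90 TPM, and the rest was the processed Kdm6b-202, with 1.03 TPM from 49 counts in replicate 1 and 0 in replicate 2. For Phf19, with 0.93 and 2.06 TPM, the processed Phf19-202 had 0 TPM in replicate 1 and 0.85 TPM from 50 counts in replicate 2. By TMM-scaled counts of the whole gene the log2 ratio of replicate 1 over replicate 2 was 0.47 for Kdm6b and -0.29 for Phf19, both under 2-fold, and no member was apart. No member was apart over complete coding transcripts either, against 8.28% of protein-coding genes. The range over the 38 genes by TMM-scaled counts was -0.75 (Aebp2) to 0.77 (Pcgf2). The marker sums given above moved in the same comparison, with neutrophil genes higher in replicate 1 and erythroid genes in replicate 2, and their part in these differences was not tested.

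**Figure D5:**
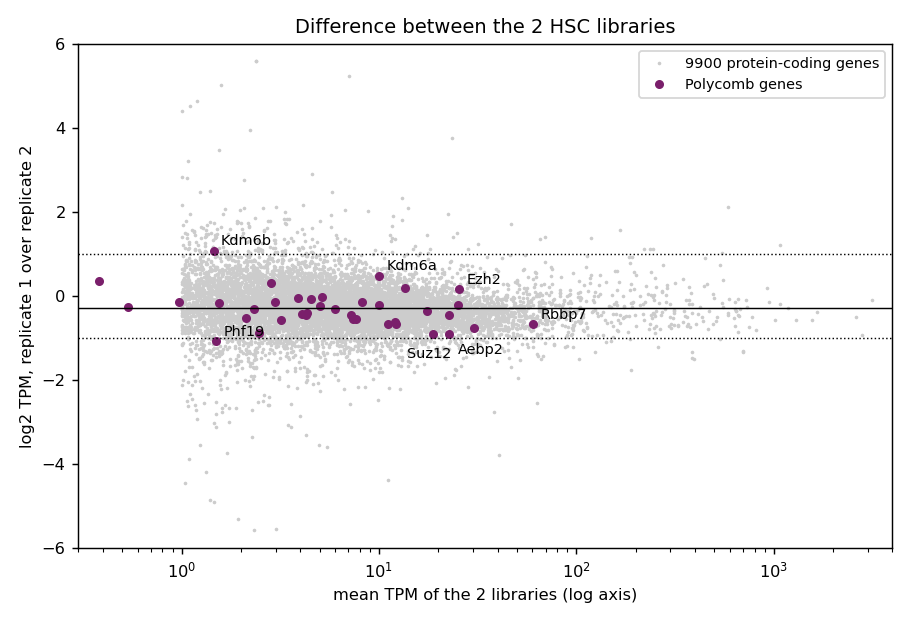
Log2 TPM of replicate 1 over replicate 2 against mean TPM (log axis) for 9900 protein-coding genes of mean 1 TPM or more (grey) and the 38 Polycomb genes (purple), with dotted lines at 2-fold and a solid line at the grey median of -0.29. The Polycomb genes lie between -1.07 (Phf19) and 1.08 (Kdm6b), within the vertical range of the grey points.

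Genes of the wider Polycomb network were described beside the members. Of 42 measured, 33 were detected, against 44.0% of protein-coding genes. Their medians over the 42 were 5.07 TPM in replicate 1 and 6.27 in replicate 2, against 0.51 and 0.53 over all protein-coding genes. The highest were subunits with general cell functions, namely Skp1a at 58.2 and 71.9 TPM, the kinase subunit Csnk2b at 40.6 and 67.8 TPM, the deubiquitinase Usp7 at 35.9 and 43.8 TPM, and the deacetylase Hdac2 at 29.2 and 42.6 TPM. Over complete coding transcripts Usp7 had 9.51 and 15.3 TPM, below Csnk2a1 at 18.3 and 30.0 TPM. The others above a mean of 10 TPM were Csnk2a1, Ogt, Tfdp1, Mga, Yy1, Hdac1, Wdr5, Mbtd1, Usp16, Max, Mysm1 and Dcaf7. The PCGF6 partners Mga (20.2 and 20.7 TPM) and Max (11.8 and 13.3 TPM) were several-fold above Pcgf6 itself (2.82 and 3.13 TPM). Mysm1 and Usp16, deubiquitinases of histone H2A like Bap1, had 10.4 and 14.0 TPM and 13.5 and 12.0 TPM, in the range of Bap1. Asxl3, the remaining ASXL gene, had 0 counts in both libraries, as did L3mbtl1 and L3mbtl4.

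Developmental genes that are classical Polycomb targets in other tissues mostly had no reads. Of 33 such genes, 28 had 0 counts in both libraries, which allows up to 3 counts in each, against 35.3% of protein-coding genes. Cdkn1c, a cell cycle inhibitor and imprinted gene, was the only one at 1 TPM in both, with 1.74 TPM from 258 counts in replicate 1 and 1.08 TPM from 237 counts in replicate 2. No chromatin mark was measured, so these values describe RNA only.

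Some members share genome positions with genes on the opposite strand, and no source used here gives the strand setting of the counting. Exons of 15 of the 38 genes overlapped an antisense exon, and for 9 the partner had over 1 TPM. The overlap was largest for Phf1, where 39.3% of exonic bases lay opposite Cuta and AC144621.3. Among the others with a partner over 1 TPM it was largest for Kdm2b at 7.60%, followed by Mtf2 at 6.93%, Eed at 6.82% and Rbbp7 at 5.98%. Rbbp4 at 18.0% and L3mbtl2 at 17.2% had partners under 0.1 TPM. Cbx7 had 1.54%, opposite Apobec3, which was at 37.2 TPM. The part of reads from the antisense partners in these levels was not tested. Division of reads between gene copies was small in the files, with a posterior SD of at most 0.63% of a member's count in replicate 1 and 0.34% in replicate 2.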

How the data were processed

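Gene and transcript tables of 2 HSC libraries were used. Per the file headers they hold expected counts (estimated counts, which need not be whole), TPM, FPKM, isoform percent and interval bounds, a score on the TPM scale, all made by the authors. The deposited TPM and FPKM values are scaled over all features of a table, noncoding RNA included. Per the deposited text files, the annotation was GENCODE M4 on the mm10 assembly. The aligner, counter and strand setting are named in no source used here. No FPKM value is printed, and FPKM served as an alternative scale only.

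Symbols, transcript classes and positions came from GENCODE M21 (GRCm38) by identifier without version. Of 272 member transcripts 269 matched, and 15 of these differed in length between the releases. A complete coding transcript was of class protein_coding without an unfinished coding end. Its bounds were summed over transcripts. Promoter sequences came from RefSeq (GRCm38.p6). Detection needed 1 TPM in both libraries. CPM is the expected count scaled to the library total, with exact Poisson intervals of 95%. Scaling factors came from edgeR 4.0.16 (TMM) and DESeq2 1.42.0 on rounded counts, with no test, since there was 1 group of 2. Tools were Python 3.11.15, pandas 2.3.3, numpy 2.4.6, scipy 1.17.1, matplotlib 3.10.9 and R 4.3.3. The apart and ordered calls were tried on simulated gene counts with Poisson intervals. That simulation held no transcript assignment and none of the deposited bounds, so it cannot speak to errors from those.

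The 38 members and all gene lists were chosen with earlier results of these data known. Named genes were all members and, of the wider list, the 4 highest, the 2 lowest and those over 10 TPM. The same was planned for the target list, of which only Cdkn1c is named. Ratios were named for each pair or, in larger groups, for the highest gene against the rest. Transcripts were named for up to 10 members, by mean TPM, whose leading transcript differed or held under 50%. Among these Pcgf1 (mean 4.295 TPM) was taken in place of Scmh1 (4.325 TPM). Uty, Rnf2-201 and Rnf2-202, the transcripts of Kdm6b and Phf19, and the antisense partners lie outside these rules. Alternatives were other thresholds, posterior means, FPKM, CPM, TMM and DESeq2 scaling, TPM over protein-coding genes, each library alone, and, chosen after seeing the data, complete coding transcripts.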

Additional observations from a re-analysis of the deposited data

How the results depend on the processing

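The count of detected members was 30 to 38 over the alternatives, 32 over complete coding transcripts, and 34 to 35 with each library alone. Ordered pairs numbered 23 to 30, with 29 to 30 for each library alone. Without division by length 1 ordered pair turned round, Pcgf1 over Pcgf6 (log2 0.50 by TPM, -1.04 by CPM). The members apart between replicates numbered 2, and 0 with TMM, 0 with DESeq2 size factors, 1 with TPM over protein-coding genes, 11 at over 1.5-fold and 0 over complete coding transcripts. A shared leading transcript was found for 26 of 38 members, and for 32 over complete coding transcripts. Members with only 1 transcript of the kind, 3 of them over all transcripts, cannot differ and are in both counts. Of the 20 named ratios none that was ordered changed direction. Among those that were not ordered, Pcgf5 over Bmi1 went to -0.80 by CPM and -0.11 without replicate 1 (0.75 without replicate 2), Rybp over Yaf2 was -0.064 without replicate 1, 0.151 without replicate 2 and 1.57, with intervals apart, by CPM, and Asxl1 over Asxl2 was 0.018 without replicate 1, -0.378 without replicate 2, -0.22, with intervals apart, by CPM and 0.52 over complete coding transcripts. The order of Jarid2 and Aebp2 and of Scmh1 and Scml2 was lost both by CPM and over complete coding transcripts, and that of Pcgf5 and Pcgf3 by CPM (log2 0.02). The cause was not tested beyond the transcript values given. No paired analysis was possible because there was 1 group. Leaving out a library for the shared leading transcript was not run, since it compares the libraries. With 2 libraries and no other cell type, nothing here shows what is particular to HSC.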
